A study of Drosophila melanogaster with 2 samples.

Results

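The genes described are the 73 protein-coding genes of Drosophila melanogaster whose symbol in the dm6 annotation starts with mRpL or mRpS, out of 13968 protein-coding genes on the chromosome arms. The 47 mRpL genes are named for the large subunit of the mitochondrial ribosome and the 26 mRpS genes for the small subunit. Binding to them was read from chromatin immunoprecipitation and sequencing (ChIP-seq) of CG32772, a zinc finger protein. There is 1 group with 2 biological replicates, both from embryos collected whole at 0 to 24 h from transgenic flies (strain CG32772-GFP) in which CG32772 is fused to eGFP, and precipitated with an antibody against GFP. All embryonic cell types and stages were pooled, so a site cannot be placed in a cell type, and no library without the tagged protein was analysed here. Read counts are not part of the peak lists, and the sequencing depth is unknown. The main list, the stricter of those called jointly, has 4746 peaks, and the lists called from single libraries have 3048 (replicate 1) and 3562 (replicate 2). A gene was counted as bound when a summit, the highest point of a peak, lay within 500 bp of any of its annotated transcription start sites.

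Mitochondrial ribosomes translate the few messenger RNAs encoded by mitochondrial DNA, all of them for subunits of oxidative phosphorylation. Their own proteins are encoded in the nucleus, made in the cytosol and imported, and part of them descend from bacterial ribosomal proteins while others were added in mitochondria. A divergent partner is here a protein-coding gene on the other strand with a start site 0 to 500 bp upstream of a start site of the ribosomal protein gene, so that the genes are transcribed away from each other from a shared stretch of DNA. Such partners were common among these genes: 53 of 73 (72.6%) had one, against 3815 of 13968 (27.3%) of all protein-coding genes.

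Sequences are shown because most of the binding lay in these shared stretches. Whole stretches are given for 5 pairs in which the summit lies between the start sites, mRpS10 and Art3 (chr3R:15229409-15229664), mRpL24 and betaggt-I (chr2L:4945362-4945578), mRpS2 and Mon1 (chr2L:4850420-4850640), mRpL32 and qless (chr3R:31252609-31252871) and mRpL39 and Prosbeta2 (chr3L:14999667-14999950). Each runs 5′ to 3′ on the strand of the ribosomal protein gene, from the base after the partner's start site to the base before the start site of the ribosomal protein gene, and none of them overlaps an annotated exon. For mRpS23 (chr2L:13835404-13835504) and mRpL20 (chr3L:13018099-13018199) the 50 bp on either side of the summit are given. They were read from the RefSeq genome of the dm6 assembly, on the plus strand for mRpS10 and mRpL32 and on the minus strand for the others. Capitals mark CAGCTG, a sequence of the E-box kind, and TATCGATA, the core of the DNA replication-related element (DRE) found at many housekeeping promoters.
mRpS10, from Art3: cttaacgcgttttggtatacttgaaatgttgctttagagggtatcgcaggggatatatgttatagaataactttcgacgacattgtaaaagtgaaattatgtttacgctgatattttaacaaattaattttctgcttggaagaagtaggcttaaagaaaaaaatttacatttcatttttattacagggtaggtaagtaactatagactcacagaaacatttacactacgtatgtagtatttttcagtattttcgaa
mRpL24, from betaggt-I: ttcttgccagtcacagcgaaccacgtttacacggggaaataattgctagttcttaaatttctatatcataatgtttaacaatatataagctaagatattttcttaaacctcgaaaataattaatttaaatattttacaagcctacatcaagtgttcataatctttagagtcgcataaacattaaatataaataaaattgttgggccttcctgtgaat
mRpS2, from Mon1: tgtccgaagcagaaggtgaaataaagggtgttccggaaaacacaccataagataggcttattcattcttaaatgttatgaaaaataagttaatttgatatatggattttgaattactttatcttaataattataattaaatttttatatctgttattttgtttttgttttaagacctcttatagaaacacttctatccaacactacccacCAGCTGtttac
mRpL32, from qless: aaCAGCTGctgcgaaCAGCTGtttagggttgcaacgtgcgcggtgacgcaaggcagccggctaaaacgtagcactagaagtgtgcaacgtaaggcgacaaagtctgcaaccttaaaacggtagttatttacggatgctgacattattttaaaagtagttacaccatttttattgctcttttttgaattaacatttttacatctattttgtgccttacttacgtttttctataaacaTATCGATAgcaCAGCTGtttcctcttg
mRpL39, from Prosbeta2: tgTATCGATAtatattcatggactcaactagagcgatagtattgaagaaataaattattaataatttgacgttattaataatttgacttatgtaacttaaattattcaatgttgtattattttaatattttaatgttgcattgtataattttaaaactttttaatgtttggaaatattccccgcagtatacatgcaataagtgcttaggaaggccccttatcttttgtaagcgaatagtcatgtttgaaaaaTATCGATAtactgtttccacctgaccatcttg
mRpS23, at the summit: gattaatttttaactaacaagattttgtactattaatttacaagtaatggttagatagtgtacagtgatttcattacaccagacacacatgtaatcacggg
mRpL20, at the summit: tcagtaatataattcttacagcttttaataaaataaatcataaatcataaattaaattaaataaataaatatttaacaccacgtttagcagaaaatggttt
The summit lay at base 121 of 256 in the mRpS10 stretch, at base 83 of 217 in that of mRpL24, at base 66 of 221 in that of mRpS2, at base 117 of 263 in that of mRpL32 and at base 125 of 284 in that of mRpL39. In the 5 whole stretches A and T outnumbered G and C: the GC content was 30.1% for mRpS10, 28.6% for mRpL24, 28.1% for mRpS2, 39.9% for mRpL32 and 27.1% for mRpL39.

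CG32772 had a promoter summit at 21 of the 73 genes (28.8%), against 17.1% of all protein-coding genes. The bound genes comprised 12 of 47 mRpL genes (25.5%) and 9 of 26 mRpS genes (34.6%). Each bound gene had a different summit. In the own lists of the libraries, 16 of 73 genes were bound in replicate 1, against 12.9% of all protein-coding genes, and 15 in replicate 2, against 14.1%. Both own lists held 13 of the 21 genes. Another 3 (mRpL37, mRpL16 and mRpS24) were only in the list of replicate 1, mRpS26 was only in the list of replicate 2, and 4 were in no own list. No test was made of these shares, because the genes were chosen with earlier results known.

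With partners counted up to 500 bp away, the share with a partner lay close to that of all such genes. Among genes with a divergent partner 20 of 53 were bound (37.7%), against 33.7% of all protein-coding genes with one. Among genes without a partner 1 of 20 was bound (5.0%), against 10.8% of all protein-coding genes without one. At these shares of all genes, 53 genes with a partner and 20 without would give 20.0 bound genes, and 21 were observed. At the share of all protein-coding genes without this split they would give 12.5. This closeness depends on the limit of 500 bp: with partners within 250 bp only, 6 of 25 genes with a partner were bound (24.0%), against 30.5% of all such genes, and 15 of 48 without (31.2%), against 14.8%, so that the order of the classes turned round. At 500 bp the share with a partner is near the background and is not a result about ribosomal protein genes, and the share without one rests on 1 gene. In replicate 1 the count was 15 of 53 (28.3%) with a partner and 1 of 20 without, against 26.7% and 7.65% of all protein-coding genes. In replicate 2 it was 13 of 53 (24.5%) and 2 of 20, against 28.6% and 8.61%, so that the share with a partner lay above the background in replicate 1 and below it in replicate 2.

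**Figure D1:**
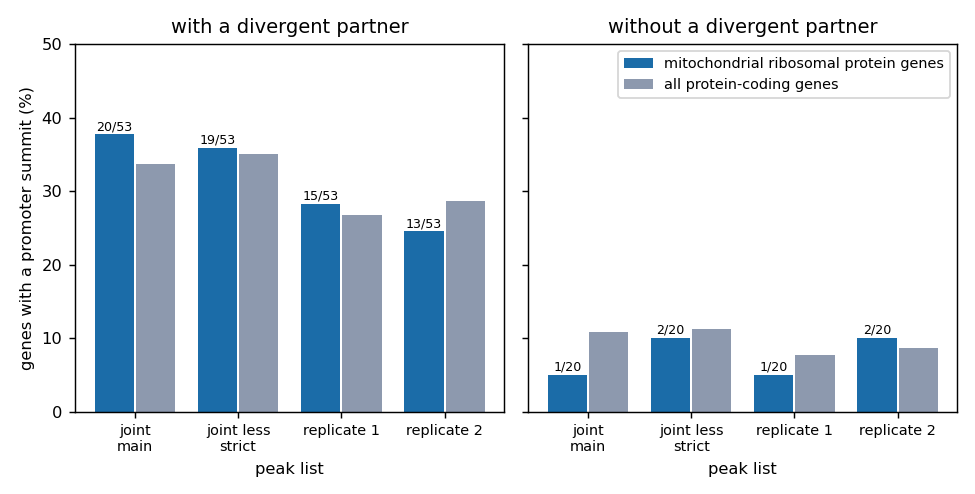
Share of genes with a promoter summit (%, bars from 0) in 4 peak lists, for genes with (left) and without (right) a divergent partner. Blue bars are the mitochondrial ribosomal protein genes, with counts above them, and grey bars all protein-coding genes; with a partner the main list gave 20 of 53 against 33.7%, and without one 1 of 20 against 10.8%.

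The strongest site belonged to the bound gene that has no partner by this definition. mRpL41 (FBgn0034001) encodes a large subunit protein without a bacterial counterpart, and its peak on 2R, positions 15217577 to 15217924, had a signal of 2172 in the main list. In the libraries its signal was 1119 in replicate 1 and 1071 in replicate 2, at rank 7 and rank 6. The summit was intergenic, at -135 bp from the start site, where negative positions are upstream. The next divergent protein-coding start was that of CG8079, 762 bp from the start site of mRpL41 and 627 bp from the summit, so mRpL41 lacks a partner only under the limit of 500 bp. A start site of the non-coding gene lncRNA:CR44463 lay 443 bp from the summit.

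Behind it stood 3 sites that ranked 21 or better in each library. mRpS10, the counterpart of bacterial S10, shares its site (3R, 15229364 to 15229700) with Art3, an arginine methyltransferase gene, with a main-list signal of 1799 and library signals of 915.3 (replicate 1) and 878.6 (replicate 2). mRpS23, a small subunit gene without a bacterial counterpart, shares its site (2L, 13835315 to 13835627) with CenG1A, which encodes a GTPase-activating protein, with signals of 1672, 863.6 and 820.2 in the same lists. mRpL23, whose bacterial counterpart sits at the exit of the peptide tunnel, had its peak (3L, 2373453 to 2373758) next to CG9004, with signals of 1430, 746.1 and 690.6. Their ranks were 12, 14 and 19 in replicate 1 and 14, 16 and 21 in replicate 2, in the order named. The order of the 3 was the same in both libraries.

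The mRpL23 summit was the 1 that fell downstream of the nearest start site. The gene has 3 annotated start sites, and the summit lay at 106, 80 and -97 bp from them, in the 5' UTR of the longer transcripts and upstream of the shortest. With respect to the start site farthest from CG9004 the summit is between the facing start sites, 227 bp apart.

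Strong sites also lay at mRpL20, mRpL24 and mRpS2. In bacteria L20 and L24 are needed for assembly of the large subunit, and S2 is a protein of the small subunit. The mRpL20 peak (3L, 13018018 to 13018279), shared with the protein-methylating enzyme gene Icmt, had a main-list signal of 642.8 and library signals of 326.4 (replicate 1) and 316.8 (replicate 2). The mRpL24 peak (2L, 4945382 to 4945588), shared with betaggt-I, the gene of a protein-prenylating enzyme, had 486.8, 234.6 and 260.4. The mRpS2 peak (2L, 4850448 to 4850664), shared with Mon1, an endosomal trafficking gene, had 474.9, 211.5 and 266.0. All 7 sites named so far ranked within the upper 10% of the main list (rank 474 or better). They are 33.3% of the bound ribosomal protein genes, against 18.1% of all bound protein-coding genes, a share that was not split by partner. The median signal was 149 for the 21 bound genes and 146 for all 2383. For all bound protein-coding genes with a divergent partner, as 20 of the 21 have, the median was higher, at 166.

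The middle group held 7 sites, with main-list signals between 118.5 and 211.3. mRpL34 (2R, 16098581 to 16098930) had 116.5 in replicate 1 and 85.31 in replicate 2 and shares its site with Dg, the Dystroglycan gene. mRpL32 (3R, 31252550 to 31252899) had 90.98 and 76.57 and shares its site with qless, a gene of coenzyme Q synthesis. mRpS7 (2L, 10386343 to 10386692), whose bacterial counterpart starts assembly of the small subunit head, had 66.44 and 104.2 and shares its site with the mitotic kinase gene Cdk1. The libraries did not order these alike: mRpL34 and mRpL32 ranked higher in replicate 1 (829 and 1214) than in replicate 2 (1558 and 1816), and mRpS7 ranked higher in replicate 2 (1146) than in replicate 1 (1867). mRpL39 (3L, 14999651 to 15000000), opposite the proteasome gene Prosbeta2, had 73.88 and 73.65. mRpS6 (3L, 4364298 to 4364647), opposite Cip4, a gene of membrane remodelling, had 74.98 and 65.25. For mRpL18 (2R, 12756082 to 12756431), whose bacterial counterpart binds 5S ribosomal RNA, the values were 46.83 and 62.82, and its partner is Taz, the tafazzin gene of cardiolipin remodelling in mitochondria. mRpL37 had 66.97 in the own list of replicate 1 and was missing from that of replicate 2, although the ranked list of all calls of replicate 2 held it with a signal of 75.66.

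The weakest 7 sites were each missing from at least 1 own list. mRpL16 (X, 1889875 to 1890224), opposite the histone methyltransferase gene trr, had a signal of 50.81 in the own list of replicate 1. mRpS24 (3R, 24163670 to 24164019), the counterpart of bacterial S3 opposite the Wnt pathway gene Apc2, had 48.75 there. In the ranked list of replicate 2 the same promoters had 41.91 and 45.76. mRpS26 (3L, 18106124 to 18106473), a gene without a bacterial counterpart opposite CG13698, had 50.7 in the own list of replicate 2 and had 48.81 in the ranked list of replicate 1. Calls of any rank are common: the ranked lists hold one within 500 bp for 68.6% (replicate 1) and 58.7% (replicate 2) of all protein-coding genes. These 3 calls ranked 4503 (mRpL16), 3925 (mRpS24) and 3037 (mRpS26). Within the leading 10000 ranks 7.7% (replicate 1) and 10.2% (replicate 2) of protein-coding genes unbound in the main list have a call. The main list was called jointly from the same libraries, so the calls at these 3 sites are no separate evidence of binding.

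Of these 7, the 4 in neither own list were mRpS22 (3R, 27916449 to 27916798, opposite CG5003), mRpS16 (2R, 14173717 to 14174066, opposite the transcription factor gene cg), mRpL11 (3R, 14511451 to 14511800, opposite the mitochondrial protease gene HtrA2) and mRpL33 (X, 4322485 to 4322834, opposite the phospholipase C gene norpA). mRpS22 had a signal of 48.31 in the ranked list of replicate 1 and 46.75 in that of replicate 2. mRpS16 had 59.03 and 34.04, and mRpL11, whose bacterial counterpart forms the base of the stalk that binds translation factors, had 35.36 and 40.04. mRpL33 had no call within 500 bp in the ranked list of replicate 1 and 31.76 in that of replicate 2, and it was the weakest of the bound genes in the main list (54.91, score 839 where the lowest score in the list is 830).

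**Figure D2:**
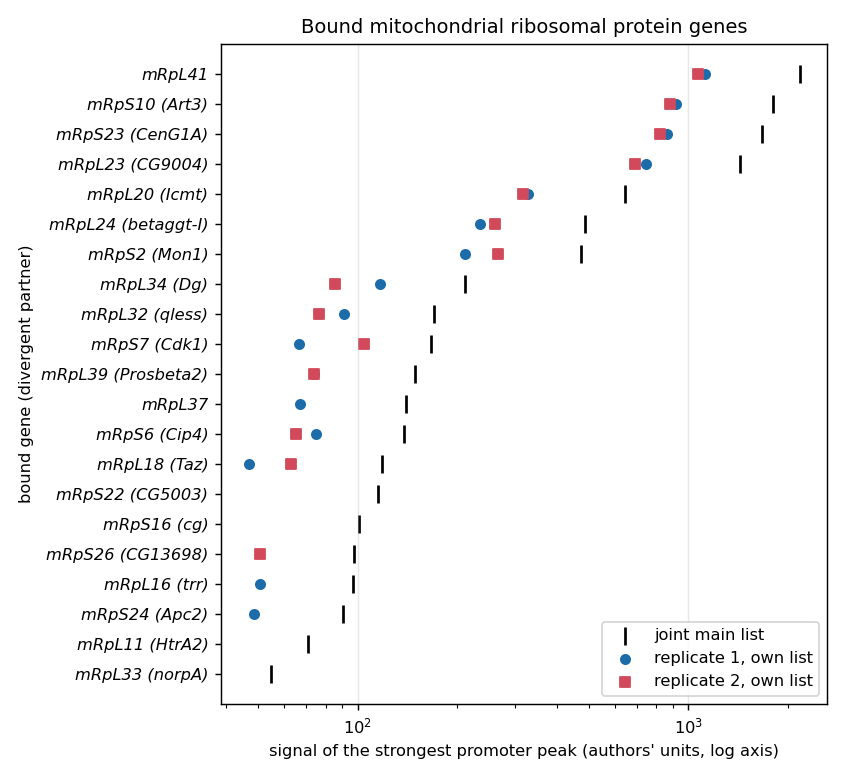
Signal of the strongest promoter peak (authors' units, log axis) at the 21 bound genes, with the divergent partner in brackets (no partner is named for mRpL37). Black bars are the joint main list, blue circles the own list of replicate 1 and red squares that of replicate 2; a missing symbol means no peak in that list, as for mRpS22, mRpS16, mRpL11 and mRpL33, and at mRpL39 the square covers the circle.

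Over the 13 genes bound in both own lists the signals of the libraries had a Spearman rho of 0.934. This is a description across genes, which share their libraries and are not independent. Over the same 13 genes the summits of the libraries lay a median of 6 bp and at most 69 bp apart. Bound genes missing from an own list do not enter these values. In the ranked lists some of their summits lay farther apart, such as that of mRpS22, at -162 bp in replicate 1 and -252 bp in replicate 2. In the main list the 7 strongest sites were under 350 bp wide and the other 14 exactly 350 bp, the weaker sites starting at rank 1008. The summits of these 14 sites stand at the middle of the peak.

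Summits lay between the start sites of the pair in 15 of 20 cases (75%), against 65.6% of all bound protein-coding genes with a partner. When any facing combination of annotated start sites was allowed, 17 of 20 did (85%), against 80.5%, the added genes being mRpL23 and mRpL11. The remaining 3 had their summit in the 5' UTR of the partner: mRpL18 in Taz, 157 bp beyond its start site, mRpS16 in cg, 199 bp beyond, and mRpL33 in norpA, 34 bp beyond. The partner was bound by the same summit in all 20 cases, and for all bound protein-coding genes with a partner the nearest partner was bound in 93.2%. A summit in a stretch of 500 bp or less falls within reach of both start sites, so this count follows largely from the definition.

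Most summits of these pairs lay nearer to the partner. The summit was nearer to the start site of the partner in 16 of 20 pairs (80.0%), against 46.4% of all bound protein-coding genes with a partner. By a margin of over 50 bp it was nearer to the partner in 11 pairs and nearer to the ribosomal protein gene in 2, and the difference was 50 bp or less in 7. The share nearer to the partner by over 50 bp was 31.6% for all bound protein-coding genes with a partner. In both backgrounds most pairs count from either gene, since 93.2% of these genes have a bound partner. A shared summit then counts on both sides, so the backgrounds are balanced largely by construction. The median distance was 184.5 bp from the ribosomal protein gene and 121.0 bp from the partner. At mRpS23 the summit lay 382 bp from the start site of mRpS23 and 110 bp from that of CenG1A. At mRpL20 it lay 282 bp from mRpL20 and 117 bp from Icmt. The exceptions were mRpS6, with the summit 77 bp from its own start site and 371 bp from that of Cip4, mRpS7, with 144 bp and 256 bp from Cdk1, mRpL23, and mRpL34, with 192 bp from either gene. No test was made of this share.

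**Figure D3:**
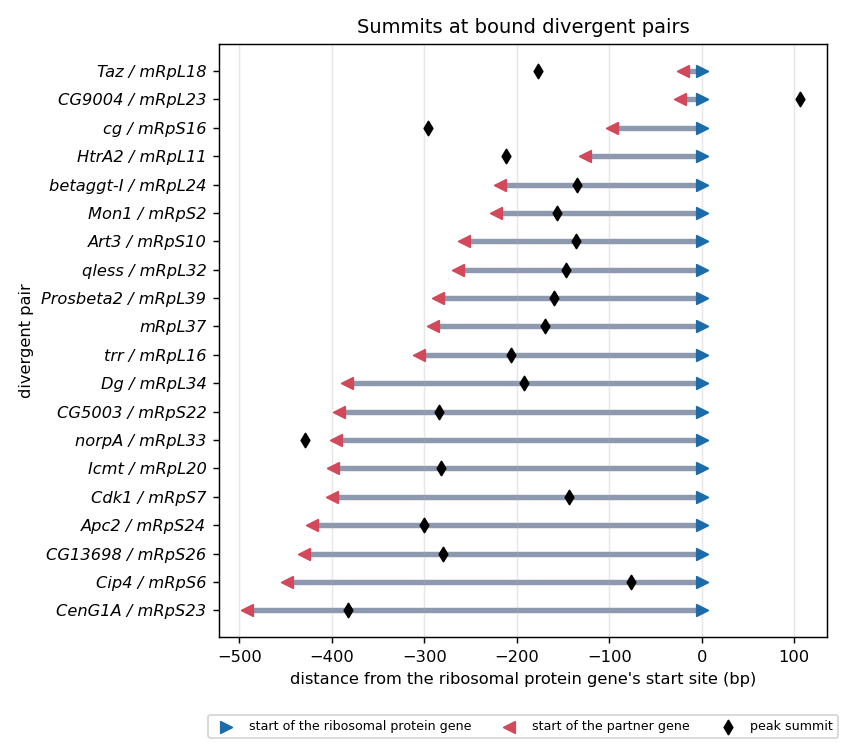
Positions (bp, negative is upstream) of the start site of the partner (red) and of the summit (black diamond) relative to the start site of the ribosomal protein gene (blue) at the 20 bound pairs, ordered by the distance between the closest facing start sites. In 15 pairs the summit lies on the grey bar between the start sites, and in 16 it is nearer to the partner.

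All but mRpL23 had their summit upstream of the start site, 20 of 21 genes (95.2%), against 85.3% of all bound protein-coding genes. The median position was -177 bp for the 21 genes and -130 bp for all 2383, and 11 summits lay 50 to 200 bp upstream and 9 farther upstream, out to -429 bp at mRpL33. Among all bound protein-coding genes with a partner the median was -123 bp and 88.2% were upstream.

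The distance between the facing start sites had a median of 298.5 bp over the 20 bound genes with a partner and of 170.0 bp over the 33 unbound ones, with overlapping ranges (20 to 492 bp and 21 to 499 bp). The lower quartiles were 221 bp and 55 bp, while the upper quartile was 399 bp in both, and no test was made. For all protein-coding genes with a partner the medians were 257.0 bp and 232.0 bp. With start sites up to 200 bp apart, 4 of 22 ribosomal protein genes were bound (18.2%), against 25.6% of all genes at that distance, and with 201 to 500 bp 16 of 31 were bound (51.6%), against 39.0%. The highest share was at 301 to 400 bp, with 6 of 8 genes, and the lowest at 0 to 100 bp, with 3 of 18. These classes were chosen after the distances were seen and hold few genes.

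**Figure D4:**
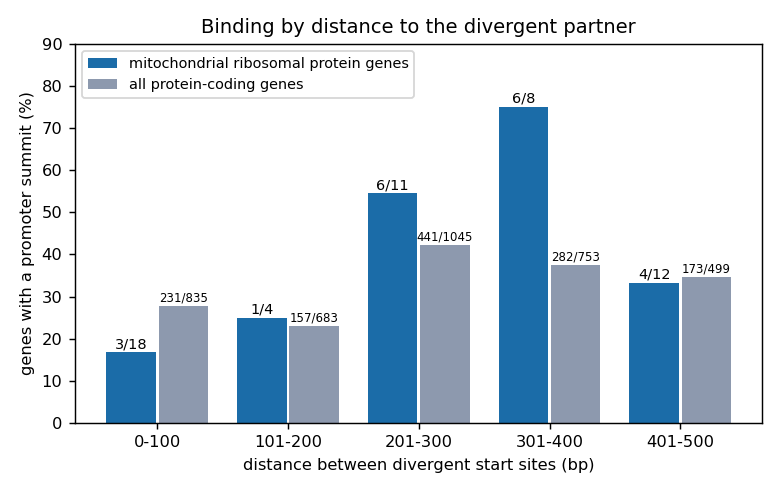
Share of genes with a promoter summit (%, bars from 0) by the distance between the closest divergent start sites (bp), for mitochondrial ribosomal protein genes (blue) and all protein-coding genes with a partner (grey), with counts above the bars. The blue share is 16.7% at 0 to 100 bp and 75% at 301 to 400 bp, and the grey share 27.7% and 37.5%.

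The 52 unbound genes comprised 33 with a partner and 19 without. Of the 33, 15 had start sites within 100 bp of those of the partner, among them mRpS14 with Naa15-16, mRpL46 with CG2021, mRpL51 with Uba4, mRpL15 with CtIP, mRpL48 with CG17660, mRpS28 with CG5323, mRpS18C with CG15535, mRpL52 with CG12107, mRpL28 with a lethal(2) locus, mRpS11 with Ns1, mRpL2 with FoxK, mRpS18A with CG31460, mRpL27 with CG15435, mRpL55 with ATPsynD, an ATP synthase gene, and mRpL47 with CG8176 and Kdm3. The others were mRpL42 with PIG-N, mRpL53 with AGO1, mRpL35 with Mitofilin, mRpL54 with CG15653, mRpL21 with rept, mRpL43 with CG30183, mRpL44 with Snr1, mRpS21 with Droj2, mRpS18B with Kua, mRpL17 with Tudor-SN, mRpL38 with CG11674, mRpS17 with Nop60B, mRpL50 with mei-P22, mRpL30 with HLH4C, mRpS31 with hzg, mRpL1 with CG9626, mRpS30 with Paf-AHalpha and mRpL22 with if. FoxK and if, an integrin gene, were bound at another of their start sites. The 19 unbound genes without a partner include mRpL10 and mRpL12, whose bacterial counterparts form the stalk of the large subunit.

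Many unbound genes still had a call in the ranked lists, in replicate 1 at a share near that of all unbound genes. The ranked list of replicate 1 held a call within 500 bp for 33 of 52 (63.5%), against 62.2% of all unbound protein-coding genes, and that of replicate 2 for 30 (57.7%), against 50.4%, while 14 had no call in either. Within the leading 10000 ranks there were 6 in replicate 1 (11.5%, against 7.7% of all unbound genes) and 8 in replicate 2 (15.4%, against 10.2%), 13 genes in all and 1 of them in both. That gene was mRpL47, with signals of 33.23 in replicate 1 and 56.1 in replicate 2. Its signal in the joint ranked list was 84.52, above those of the bound genes mRpL11 (71.02) and mRpL33 (54.91). The other 12 were mRpL14, mRpL17, mRpL21, mRpL4, mRpL42, mRpL9, mRpS17, mRpS18A, mRpS18B, mRpS21, mRpS25 and mRpS31. At mRpL4 the strongest call in the ranked list of replicate 2 lay at -142 bp, with rank 1318 and a signal of 96.27. In that of replicate 1 the strongest call was a different one, at 366 bp, with rank 69925 and a signal of 11.56. mRpL4 was bound in the own list of replicate 2 and in the less strict joint list, and mRpL33 was not. In the less strict joint list 21 of 73 genes were bound, against 17.8% of all protein-coding genes.

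By origin, 15 of 45 genes with a bacterial counterpart were bound (33.3%), and 6 of 28 without one (21.4%), against 17.1% of all protein-coding genes. The classes were assigned by protein family, and mRpS18A, mRpS18B and mRpS18C were all counted as having a bacterial counterpart. Among genes with a partner the counts were 15 of 34 (44.1%) and 5 of 19 (26.3%), on either side of the 33.7% of all protein-coding genes with a partner. By chromosome arm, 4 of 12 genes were bound on 2L (against 16.3% of all protein-coding genes there), 4 of 12 on 2R (against 15.1%), 5 of 17 on 3L (against 18.6%), 6 of 21 on 3R (against 18.2%) and 2 of 11 on X (against 17.6%).

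The E-box CAGCTG, a sequence of the kind recognised by basic helix-loop-helix proteins, was common at the start sites of these genes, both bound and unbound. Within 50 bp of the 5' end of the gene model it was present at 9 of 21 bound genes (42.9%) and 26 of 52 unbound genes (50%), against 9.29% of all protein-coding genes. The longer sequence AACAGCTG, which contains it, was present on either strand at 9 of 21 bound (42.9%) and 16 of 52 unbound genes (30.8%), against 4.5%. With a partner 26 of 53 ribosomal protein genes held CAGCTG (49.1%) and without one 9 of 20 (45.0%), against 14.5% and 7.33% of all protein-coding genes. Bound genes were no more frequent among holders of CAGCTG. Of the ribosomal protein genes, 9 of 35 that held it were bound (25.7%) and 12 of 38 that did not (31.6%). For all protein-coding genes the shares were 25.4% and 16.2%. The longer AACAGCTG went the other way, being present at 42.9% of bound and 30.8% of unbound ribosomal protein genes.

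None of the 21 windows reaching 50 bp to either side of the summits held CAGCTG, and with 4.97% of 1870 other promoter summits holding it, a count of 0 is near the background. In the 9 bound genes that held it near the start site, the summit lay 91 to 436 bp from it, with a median of 145.0 bp. The mRpL32 stretch printed above shows the arrangement: it holds 3 copies, from base 3 beside the qless start site to base 248 beside that of mRpL32, with the summit at base 117 between them. In the mRpS2 stretch the copy is at base 211 and the summit at base 66.

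**Figure D5:**
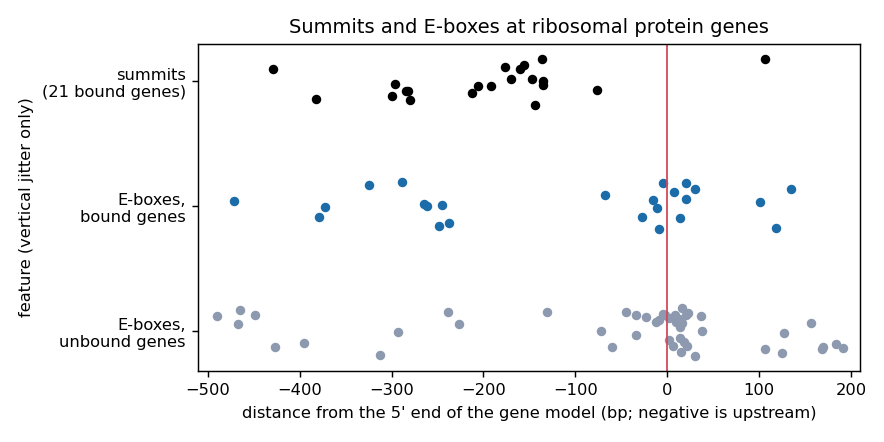
Positions (bp from the 5' end of the gene model, negative is upstream) of the 21 summits (black) and of the first base of each E-box (the hexamer named in the text) within 500 bp upstream and 200 bp downstream of bound (blue) and unbound (grey) genes; vertical spread is jitter only. E-boxes gather at the red line, the 5' end, and most summits lie 50 to 300 bp upstream of it.

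The DRE core TATCGATA, searched on both strands like the other motifs, was in 5 of 21 promoters of bound genes (23.8%) and 10 of 52 of unbound genes (19.2%), against 9.36% of all promoters from 250 bp upstream to 50 bp downstream, and in none of the 21 summit windows, against 2.78% of other promoter summits. It stands near both ends of the mRpL39 stretch, starting at bases 3 and 253. GGTCACAC, the core of another motif of housekeeping promoters, was in 8 of 73 promoters (11.0%), against 7.69%, and in no summit window, against 2.09% of other promoter summits. At such shares neither count of 0 is a result about these genes. The promoter shares of TATCGATA and GGTCACAC were not split by divergent partner, unlike those of CAGCTG near the start site. TATAAAA was in 3 of 21 summit windows (14.3%), against 10% of other promoter summits. The GC content of the summit windows had a median of 29.7% (lowest 14.9% at mRpL39, highest 60.4% at mRpL18), against 33.7% for other promoter summits.

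Other nuclear genes with mitochondrial products can be read against the same 17.1% of all protein-coding genes. The matching shares were 33.7% for genes with a divergent partner and 10.8% for genes without. The mitoribosome genes tko and bonsai, whose symbols are of another form, were not bound, and mEFTu1 (main-list signal 88.54) and mIF2 (76.04), genes of mitochondrial elongation and initiation factors, were the 2 bound genes of 10 in the list that also holds tko and bonsai. Mitochondrial aminoacyl-tRNA synthetase genes were bound in 4 of 15 cases, ProRS-m, LeuRS-m, CysRS-m and ArgRS-m, all among the 7 with a divergent partner. Nuclear genes for transcription and upkeep of the mitochondrial genome were bound in 3 of 14 cases, the protease gene Lon (signal 715.5), the DNA-binding protein gene mtSSB (355.7) and mTerf5 (71.34). Complex I genes were bound in 8 of 40 cases (20.0%), led by ND-ASHI (434.3), ND-24 (344.2) and ND-MWFE (316.4), and all 8 were among the 20 with a divergent partner. Import genes had 1 of 15, Tom7. Of the bound genes named in this paragraph, mEFTu1, mIF2, CysRS-m, ArgRS-m, mTerf5 and Tom7 were in neither own list. LeuRS-m was only in that of replicate 2. Genes of the cytosolic ribosome were bound in 44 of 92 cases (47.8%), and there 25 of 56 genes without a partner were bound, against 1 of 20 for the mitochondrial ribosome.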

How the data were processed

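ChIP-seq libraries of 2 biological replicates were analysed from deposited peak lists on the dm6 assembly. Per the labels, DNA was sheared by sonication to 200 to 800 bp. The notes deposited beside the lists name the irreproducible discovery rate as the basis of the thresholded lists. The labels name a possible control experiment, but its part in peak calling, like the aligner and the caller, is not given in the sources used here. Signal per peak, as the authors deposited it, has no stated scaling and was used for ranking and description within a list. The deposited score (830 or more in the main list) and the authors' -log10 q-value were copied unchanged. Of 4746 main-list peaks, 4699 lay on the chromosome arms, and all 4746 occur in the joint ranked list with equal interval, summit and signal. Ranks are by signal over whole lists.

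Gene models came from Ensembl release 115 (BDGP 6.54), and sequence from RefSeq's dm6 genome. For each gene the strongest summit within 500 bp of any start site was kept. Counts were made in Python 3.11.15 with numpy 2.4.6 and pandas 2.3.3, and figures with matplotlib 3.10.9, and the counting was tested on simulated data. The members, lists and motifs were chosen with earlier results of these data known. Named are all bound members and their partners (1 partner is not reported here), unbound members with a partner, and other unbound members with a call within the leading 10000 ranks of either library. The mention of mRpL10 and mRpL12, the neighbours of mRpL41, the distance classes, the origin of the proteins, the windows of 50 bp around start sites and the side of the summit were chosen after values were seen. Alternatives were the less strict list, each library alone, overlap with both own lists, other promoter widths, the stronger peaks, gene ends as start sites and other definitions of a partner. No test was made, since there is 1 group and no control library was analysed here.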

Additional observations from a re-analysis of the deposited data

How the results depend on the processing

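The count of bound genes stayed within 1.5 times of 21 under 6 of 8 alternatives (13 to 22 genes over all). Requiring overlap with both own lists gave 13 bound genes, 12 of them with a partner and 12 with the summit upstream, and so did promoters of 200 bp (13, 12 and 12). In both settings 17.8% of the genes were bound, against 10.8% (both own lists) and 11.8% (200 bp) of all protein-coding genes. The share with a partner was 22.6%, below the 22.9% and 25.8% of all genes with one, whereas in the main list it lay above. Keeping only the 50% of main-list peaks with the highest signal, 13 genes with a partner were bound and 13 summits lay upstream. Without replicate 1 or without replicate 2 the count was 15 to 16 for all genes, 13 to 15 with a partner, 1 to 2 without and 14 to 15 with the summit upstream. The less strict joint list gave 2 bound genes without a partner, mRpL4 being added.

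The split by partner depended on how far a partner may lie. With partners within 250 bp, 6 of 25 genes with a partner were bound (24.0%, against 30.5% of all such genes) and 15 of 48 without (31.2%, against 14.8%), so that the order of the classes turned round. With partners within 1000 bp, 21 of 58 were bound (36.2%, against 30.4%) and 0 of 15 without (against 9.51%). Partners of any gene type, partners on either side and gene ends as start sites left 20 bound genes with a partner and 1 without. With promoters of 1000 bp 22 genes were bound, mRpL55 being added at 861 bp. No paired analysis was possible because there is 1 group. Depth is unknown, so genes absent from a list may lie below its detection limit.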

Other observations

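The E-box at the start site extended to other genes of mitochondrial translation. CAGCTG lay within 50 bp of the 5' end in 7 of 10 genes for mitochondrial translation factors and the subunits tko and bonsai (70.0%), and each of these held the longer AACAGCTG. It was present in 7 of 15 genes of mitochondrial aminoacyl-tRNA synthetases (46.7%), 11 of 40 of complex I (27.5%), 4 of 14 for transcription and upkeep of the mitochondrial genome (28.6%) and 3 of 15 of mitochondrial import (20.0%). Genes of the cytosolic ribosome held it in 7 of 92 cases (7.61%), against 9.29% of all protein-coding genes.

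The sequences of 7 bases that ranked highest at 1870 other promoter summits against windows 500 bp away were all runs of A and T, and were ranked without the sites of the mitochondrial ribosomal protein genes. TTTAAAA was in 7 of 21 summit windows of these genes (33.3%), against 13.8% of the other summits, and in 0 of the 21 windows 500 bp away, against 4.44%. TTAAAAA and AAAATAT were each in 6 of 21 (28.6%), against 16.7% and 15.6%. AAATAAT and AAAAATA were each in 5 of 21 (23.8%), against 14.2% and 18.2%. AAAAATT and TAAATAA were each in 3 of 21 (14.3%), against 14.0% and 13.3%. The remaining ranked sequences were rarer than at the other summits. AAAAAAT and TAAAAAA were each in 3 of 21 (14.3%), against 19.5% and 16.9%, and AAAAAAA in 4 of 21 (19.0%), against 20.4%. These sequences overlap. The median GC content was 29.7% in the summit windows of these genes and 33.7% at the other summits. No test was made.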
